A study of Saccharomyces cerevisiae with 28 samples.

Results

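The guides described here were directed at 35 autophagy genes of Saccharomyces cerevisiae, 34 ATG genes and VPS30, in pooled CRISPR screens for α-amylase secretion. A gene was counted as having a guide when the rows used here of the study's lists of activation guides named it, and 16 of the 35 genes had 1 such guide each. The rows used here of the guide lists named a feature for 2278 guides, among 40890 guides in the count tables. A gene without a guide in these rows can therefore still have guides in the library. The 16 guides were taken from the list of the early activation screen (14 guides) and that of the main activation screens (6 guides), with 4 guides on both lists. The rows of the main list are ordered by p, so the 6 guides on it, for ATG10, ATG16, ATG21, ATG33, ATG39 and VPS30, were named through the readout of the main activation screens, and the early list likewise came from the early screen. Values of those guides in the screen that listed them are given as a description, whereas the repression screens played no part in the choice of any guide. The other 19 genes (ATG1, ATG2, ATG3, ATG4, ATG9, ATG11, ATG12, ATG15, ATG18, ATG19, ATG20, ATG23, ATG26, ATG27, ATG31, ATG32, ATG36, ATG40 and ATG41) had no guide in these rows.

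All groups shared 1 background, the diploid bioethanol strain Ethanol Red with a codon-optimised Aspergillus niger α-amylase gene inserted at the HO locus, and differed in the plasmid library and the sorted fraction. The activation plasmids carried VPR, a strong transcriptional activator, on a Cas9 that has lost its nuclease activity (dCas9), and the repression plasmids carried the Mxi1 repressor domain on the same protein. dCas9 was driven by the constitutive TEF1 promoter, and anhydrotetracycline in the droplets induced the guide. Single cells were enclosed in droplets with a quenched substrate that fluoresces once secreted amylase degrades it, and the brightest droplets were collected as the high fluorescence fraction, all others as the low fraction. Cells of both fractions were grown out on plates, and the reads of their guides were counted in 28 libraries. The early activation screen gave 2 high and 2 low libraries, the main activation screens (rounds 2 to 5, with 2 replicates each) 8 of each, and the main repression screens (rounds 1 and 2) 4 of each. How often a guide was sorted and how well its cells grew out afterwards cannot be told apart in these reads, and the levels of the targeted transcripts were not analysed here.

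Autophagy carries cytoplasm, organelles and selected proteins to the vacuole in double-membrane vesicles. In yeast, the Atg1 kinase complex with Atg13, Atg17 and Atg29 starts the process, and a phosphatidylinositol 3-kinase complex that holds Vps30, Atg14 and Atg38 marks the forming membrane with a lipid that Atg21 binds. A pair of ubiquitin-like systems, in which Atg7 is the activating enzyme, Atg10 a conjugating enzyme and Atg5 and Atg16 form the platform, attach Atg8 to this membrane. Receptors such as Atg34 for α-mannosidase and Atg39 for the endoplasmic reticulum and nuclear envelope choose the cargo, Atg33 is a mitochondrial protein needed for the removal of mitochondria, and Atg22 is a vacuolar membrane protein that returns amino acids to the cytosol.

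The guides on which the results turn are shown 5′ to 3′, without the adjacent PAM, so that they can be read beside their counts. Capitals mark runs of at least 4 T, the sequence at which RNA polymerase III stops, and such runs occurred in 2 of the 16 guides and in 11.3% of all guides.
ATG16: ggatgttgtgcagcagaaac
ATG16 (placed by position): cccttaatacagattcgcgc
ATG5: atatgtacatatggatattg
ATG5 (placed by position): aattatatgtgataaaagtc
ATG22: aatttcctaaaattgttgag
ATG39: tttgctttcgccgttcggcg
ATG33: ttatgtatacctcttctctg
ATG10: accaaaatataattaactac
ATG38: gggagataatacatttgaag
ATG7: aatctcatggattaaaaaag
ATG21: ggcatgcTTTTTaacaagcg
ATG17: aaagaacTTTTTatctgtgt
The GC content of the 16 guides was at most 60.0% with a median of 32.5%, against a median of 40.0% over all guides. The positions of the 16 guides were not in the rows used here, other than by the gene they name.

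Libraries held 50433 to 3359719 reads, and fewer guides were detected in the high than in the low library of every sort, with 3585 to 5958 against 5128 to 11382 in main activation and 6362 to 9937 against 18248 to 20701 in main repression. Of the 16 autophagy guides, a median of 10 (range 7 to 13) had a read in a main activation high library and a median of 13 (range 8 to 15) in a low library, while repression gave 12 to 13 in high and 15 to 16 in low libraries. Normalisation factors by the RLE method were lower in high than in low libraries of each screen. The method scales libraries by the guides that have a read in every library. In main activation 523 guides had a read in every high library, and the median log2 fold change of all tested guides was 4.68, not 0. The high library of repression round 2 replicate 2 stood apart, with a factor of 0.0349 against 1.39 to 1.46 in the other 3 high libraries, and in the early screen the high libraries had factors of 0.0833 and 1.21. A positive log2 fold change means more reads in the high than in the low fraction once these factors are applied. Values given with the RLE factors divide a count by the reads of the guides tested in that screen times the factor, as edgeR does, and not by the library total times the factor. CPM gives a guide's reads as counts per library total in the usual unit, without the factors. Errors are the spread between libraries, and nothing in the labels says that replicates were separate cultures.

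The guide for ATG16 (YMR159C, chrXIII:574476-574928 in the R64 assembly), whose product brings Atg5 to the membrane where Atg8 is attached, had no read in the high fraction of any activation sort and was read in every low fraction. In the main activation screens ATG16 had 0 reads in all 8 high libraries and between 1 and 270 reads, with a median of 5, in the 8 low libraries. The 2 early high libraries also had 0 reads of the ATG16 guide, against 145 and 404 in the 2 low libraries. This was common in the early screen, where 41.3% of all guides with reads in both low libraries had 0 reads in both high ones. High and low libraries of the ATG16 guide therefore did not overlap in either activation screen. By CPM, 19.7% of guides with a read lay below every low library in the early screen and 1.21% in the main screens. Its low abundance was 41.3 ± 43.4 CPM in the main screens (SD, n = 8), and against a floor of 3 reads over all high libraries the guide was at least 225-fold lower in the high fraction by library totals and at least 4.51-fold lower with the RLE factors. Of the 1507 guides with reads in all 8 low libraries, 8 (0.531%) had 0 reads in every high library, and 4 guides did so in the early and main screens alike. The ATG16 guide did not pass the filter on low counts and was on the main list, so no test is attached to this pattern. In the repression screens the same ATG16 guide was read in all 4 high libraries, with 413, 118, 83 and 1 reads, against 451, 598, 397 and 614 in the low libraries.

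Most of the autophagy guides that could be tested in the main activation screens were enriched in the high fraction, as were most of the 1166 guides tested there. Without a filter, 1650 of 20411 guides and 6 of the 16 autophagy guides were enriched. The median log2 fold change over all guides was then -1.06. Of the 7 autophagy guides that passed the filter, 6 were enriched at log2 FC > 3 and FDR < 0.05 (ATG33, ATG39, ATG10, ATG38, VPS30 and ATG21), 1 was not (ATG7) and 0 were depleted. Over all guides tested in this comparison 69.5% were enriched and 3.34% depleted, and the median log2 fold change was 4.68, against 6.75 for the 7 autophagy guides. Of the 6 guides that the main list had named, 5 were tested and 5 were enriched, on a list made from this same readout, and of the 10 named by the early list alone, 2 were tested and 1, ATG38, was enriched. With the sort replicate as a block in the model 0 of the 6 stayed enriched, at log2 fold changes of 1.18 to 6.41, and 2 of them kept log2 FC > 3 at an unadjusted p under 0.05.

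VPS30 (YPL120W), the yeast counterpart of Beclin 1, and ATG38 (YLR211C), which holds the kinase complex together, had similar log2 fold changes. The VPS30 guide had 4 to 7488 reads (median 411.5) in the high and 7 to 1530 (median 550) in the low libraries, corresponding to 1792 ± 3091 and 539 ± 316 CPM (SD, n = 8 each). Its high libraries spanned the range of the low ones on both sides, and with the RLE factors the high library was above its low partner in 5 of 8 sorts. Its log2 fold change was 6.69 ± 1.86 (SE). ATG38 had 0 to 2671 reads (median 5.5) in the high and 0 to 592 (median 20) in the low libraries, or 214 ± 433 and 136 ± 183 CPM. Of the ATG38 reads in the high fraction, 76.7% came from round 4 replicate 1. Its log2 fold change was 6.75 ± 1.83 (SE, edgeR, Benjamini-Hochberg adjusted p = 0.00114). By library size alone the values fell to 1.23 for VPS30 and 0.13 for ATG38, neither of them enriched. The guide for ATG14, which directs the same kinase complex to autophagy, had 2557 of its 2565 high reads in round 5 replicate 2 and was not tested.

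Counts of the guides for selective autophagy were carried by single libraries. ATG33 (YLR356W) had 97274 reads, 4.08% of the library, in the high fraction of round 5 replicate 1, which were 99.7% of all its high reads, and 0 to 149 in the other 7 high libraries. In the low libraries ATG33 had 0 to 123 reads with a median of 0.5. High and low libraries overlapped outside that replicate, and 2 sorts held no read of ATG33 in either fraction. The log2 fold change of ATG33 was 14.77 ± 2.17 (SE), and without round 5 replicate 1 the guide no longer passed the filter. ATG39 (YLR312C) had 51602 reads, 5.86% of the library, in the high fraction of round 3 replicate 1, 97.9% of its high reads, and 1 to 963 in the other 7, against 5 to 1366 (median 76) in the low libraries. For ATG39 the log2 fold change was 10.76 ± 2.28 (SE), which fell to 4.16 without round 3 replicate 1. The guide for ATG34 had 352 of its 357 high reads in 1 library, round 5 replicate 2, and was not tested.

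Among the guides of the conjugation systems, ATG10 (YLL042C) was higher and ATG7 (YHR171W) was not. ATG10 had 0 to 4812 reads (median 2.5) in the high libraries, with 4812 in round 3 replicate 2 and 991 in round 4 replicate 1 and at most 10 elsewhere, and 0 to 316 reads (median 13) in the low libraries. Its log2 fold change was 8.88 ± 2.01 (SE), and with the RLE factors the high library was above its low partner in 6 of 8 sorts. Without either of these 2 replicates the ATG10 guide did not pass the filter. ATG7, the activating enzyme shared by both systems, had 0 to 6 reads in the 8 high libraries and 2 to 827 (median 83.5) in the low ones, or 3.40 ± 4.89 against 184 ± 245 CPM (SD, n = 8 each). Every ATG7 high library lay below its own low partner by CPM, yet the log2 fold change with the RLE factors was -1.53 ± 0.99 (SE, edgeR, Benjamini-Hochberg adjusted p = 0.140), and by library size alone it was -6.26 and the guide was depleted. The guide for ATG5 had 0 reads in all 8 high libraries, as had 33.2% of all guides with a read, and 80 reads in the low ones, found in 3 libraries. That for ATG8 had 487 of its 498 high reads in round 4 replicate 2.

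ATG21 (YPL100W), whose product binds the lipid made by the kinase, had a guide that was read in all 16 libraries, as were the guides for VPS30 and ATG39. ATG21 had 2 to 7273 reads (median 168.5) in the high and 19 to 1176 (median 472.5) in the low fraction, and high libraries extended beyond the low ones on both sides. The log2 fold change of ATG21 was 5.78 ± 1.78 (SE), and it was no longer enriched without round 3 replicate 1, at 2.72. The guides of the initiation complex did not pass the filter and were not tested. ATG13, the regulatory partner of the Atg1 kinase, had 2 reads in all high libraries together and 2 to 417 reads (median 146) in the low ones, and by CPM every ATG13 high library lay below every low library, as was so for 1.21% of all guides with a read. With the RLE factors the ATG13 high and low libraries overlapped. ATG29 had 3061 of its 3080 high reads in round 5 replicate 2, and ATG17 had 451 of its 463 in round 4 replicate 2. ATG22 had 0 reads in all 8 high libraries and 201 in the low ones, at least 96.7-fold lower by library totals and at least 1.94-fold with the RLE factors. Absence from every high library was common, at 33.2% of all guides with a read in these screens.

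In the early activation screen, no autophagy guide was enriched and some were read in the low libraries only, as was common among all guides. Of the 15 autophagy guides tested, 0 were enriched at log2 FC > 8 and FDR < 0.1, where 1.21% of all tested guides were, and 4 were depleted at log2 FC < -8, where 21.2% of all tested guides were. The count of 0 held at an unadjusted p under 0.05 and with DESeq2. The 4 were ATG16, ATG17, ATG29 and ATG7, with 0 reads in both high libraries, as were 41.3% of all guides with reads in both low libraries. ATG17 (YLR423C), the scaffold of the initiation complex, had 743 and 159 reads in the low libraries, and ATG29 (YPL166W), its partner, 610 and 65. ATG7 had 195 and 230. In 2 high libraries these guides were at least 337-fold (ATG17), 252-fold (ATG29), 205-fold (ATG16) and 159-fold (ATG7) lower by library totals, and at least 61.8-fold, 46.3-fold, 37.6-fold and 29.1-fold with the RLE factors. Their fitted log2 fold changes lay between -11.01 and -10.34, and as these guides were listed from this screen the values are a description. None of the 4 was depleted with edgeR's quasi-likelihood test, without a filter or with the replicate as a block.

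ATG34, ATG22 and ATG38 were nearly as low in the early screen, with 1 read each over the 2 high libraries. The low libraries held 405 and 113 reads of ATG34, 234 and 150 of ATG22 and 828 and 750 of ATG38, so none of these guides overlapped between the fractions, as was so for 19.7% of all guides with a read, and none of the 16 guides lay above every low library in both high ones, as 1.69% of all guides did. Their log2 fold changes of -6.74, -6.58 and -6.65 did not reach the threshold. Most of the remaining guides differed strongly between the 2 high libraries. ATG14 had 3049 and 0 high reads, ATG39 2211 and 1, ATG13 0 and 1937, ATG21 1 and 2825, and VPS30 1 and 610. Among these, only VPS30 had fewer high than low CPM in both sorts, with 928 and 1120 low reads, and for the other 4 guides the direction differed between the 2 sorts. Log2 fold changes ran from -0.70 for VPS30 to 5.90 for ATG39, with none past the threshold. Leaving out 1 sort left 1 library against 1 and no test, and the direction of ATG5, ATG8, ATG10, ATG13, ATG14, ATG21 and ATG39 then depended on which sort was kept.

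Most autophagy guides did not differ past the threshold between the fractions under repression. Of the 15 tested, 2 (ATG5 and ATG22) were depleted at log2 FC < -3 and FDR < 0.05, against 13.5% of all guides tested, and 1 (ATG39) was enriched at log2 FC > 3, against 5.37%, a call that rested on 1 library. The remaining 12 did not reach either threshold, and the median log2 fold change was -0.40 over the 15 guides and 0.01 over all tested guides.

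ATG5 (YPL149W, chrXVI:271310-272194) is joined to Atg12 and, with Atg16, directs the attachment of Atg8. Its guide had 0 reads in all 4 high libraries and 47, 43, 54 and 67 reads in the low libraries, or 22.5 ± 8.73 CPM (SD, n = 4). High and low libraries did not overlap and the low ones lay close together. ATG5 was at least 77.0-fold lower by library totals and at least 48.4-fold with the RLE factors, with a fitted log2 fold change of -8.60 ± 1.98 (SE, edgeR, Benjamini-Hochberg adjusted p = 6.95e-04). ATG22 (YCL038C, chrIII:54941-56527) gave the same picture, with 0 reads in all 4 high libraries and 30, 30, 37 and 71 in the low ones, or 17.6 ± 8.39 CPM. The fractions were again separate, and ATG22 was at least 61.3-fold lower by library totals and 38.5-fold with the RLE factors, with a fitted log2 fold change of -8.24 ± 1.93 (SE, edgeR, Benjamini-Hochberg adjusted p = 6.95e-04). With the replicate block the values were -8.41 and -7.86 and both stayed depleted. Guides with reads in all 4 low and 0 reads in all 4 high libraries were frequent, making up 16.2% of those with reads in every low library. An exact two-sided permutation test over the 8 libraries gave p = 0.0286 for ATG5 and for ATG22, the smallest it allows, and p = 0.176 after Benjamini-Hochberg adjustment over all guides. The ATG14 guide had the same values in this test. Its unadjusted p was under 0.05 for 3 of the 16 autophagy guides and for 3843 of all 23667 guides with a read.

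The ATG39 guide had 1401, 528, 44 and 4182 reads in the repression high libraries and 964, 659, 205 and 721 in the low ones. By CPM the high libraries lay above their low partners in 2 of 4 sorts, with 541 ± 696 against 238 ± 73.7 CPM (SD, n = 4 each), and the fractions overlapped. Its log2 fold change was 6.34 ± 2.31 (SE, edgeR, Benjamini-Hochberg adjusted p = 0.0372). It rested on the high library of round 2 replicate 2, which held 67.9% of its high reads and had the RLE factor of 0.0349, and without that replicate the value was 0.07. The ATG21 guide followed the same course, with 2875, 2192, 1407 and 5147 high reads against 3908, 2505, 1515 and 2327 low reads, a log2 fold change of 4.59 ± 1.99 (SE, edgeR, Benjamini-Hochberg adjusted p = 0.0892) and -0.19 without round 2 replicate 2. Both guides had their highest count in this library, in which 12 of the other 14 autophagy guides had at most 4 reads.

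The other guides of the conjugation, initiation and kinase complexes did not reach either threshold under repression. ATG7 had 1131, 600, 797 and 86 high reads against 863, 816, 452 and 634 low reads, and the fractions overlapped (log2 fold change 1.29 ± 1.19). ATG29 had 213, 1607, 354 and 3 against 236, 171, 106 and 210, also overlapping, with 1.81 ± 1.07. The kinase complex guides were at -1.96 for ATG14, which lay below every low library with 60, 7, 0 and 2 high reads against 168, 141, 79 and 122, at 0.35 for ATG38 and at -0.48 for VPS30. High CPM below every low CPM was found for 18.3% of all guides with a read, and among the members for ATG5, ATG14, ATG16 and ATG22, while 0.11% of all guides and no member lay above every low library. Log2 fold changes of the other guides were -1.98 for ATG8, -1.63 for ATG16, -0.73 for ATG34, -0.40 for ATG13, 0.84 for ATG10 and 1.35 for ATG17. The ATG33 guide was the only member not tested, with 1300, 2, 0 and 128 high reads against 1 read in the 4 low libraries, and 90.9% of its high reads were in round 1 replicate 1. Without a filter, where 1125 of 23667 guides were enriched, the log2 fold change of ATG33 was 11.84. The exact permutation test gave p = 0.143 for this guide.

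The difference between activation and repression was tested as an interaction over the 24 main libraries, for all 16 guides. None of them differed at FDR < 0.05 with edgeR, where 3.97% of all 14666 guides did. An unadjusted p under 0.05 was found for 8 of the 16, and for 3 with the replicate block or with library size alone. The share of all guides at that level was not computed, so the count has no background. ATG10, ATG39 and VPS30, among the 8, were on the main list, which was made from the activation readout used here. The value for ATG14 was largest, with a difference of log2 fold changes, activation minus repression, of 9.50 ± 3.34 (SE, edgeR, Benjamini-Hochberg adjusted p = 0.0774), followed by ATG29 at 8.89 ± 3.26, ATG10 at 8.19 ± 3.08 and ATG39 at 8.12 ± 3.05. The median over all guides was 0.71. The ATG16 guide had 0 reads in the activation high fraction, and under repression its high libraries were read but lay below every low library by CPM. Its difference was -7.07 ± 4.79 (SE, edgeR, Benjamini-Hochberg adjusted p = 0.434). ATG5 and ATG22 were without a read in all high libraries of both main screens, and no difference can be estimated for them. Under each of the other 5 settings of this test, 0 member guides differed.

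Beyond the lists, 12 further guides could be placed at autophagy genes by the position given for them, from 500 bp before to 100 bp after the annotated start. They added 6 genes without a listed guide (ATG4, ATG9, ATG12, ATG19, ATG32 and ATG40), so that 22 of the 35 genes had a guide of either kind. Having a placed guide did not mean that it was read. The placed guides of ATG8, ATG12, ATG19 and ATG32 had 0 reads in every library. That of ATG4 had 1 read, in a main activation high library. That of ATG40 was read only in repression low libraries, with 93 and 58 reads. They were placed by position, not by their counts. In the repression screens 3 of the 12 were tested and 0 were called, with log2 fold changes of 1.14 for the placed guide of ATG16, 1.06 for that of ATG9, a membrane protein that seeds the vesicle, and -0.38 for that of ATG5. None was tested in the activation screens.

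The placed guide of ATG16 lies at position 574959 of chromosome XIII, 31 bp before the start of the gene, and also falls in the same window around the start of 1 other gene, as do the placed guides of ATG4, ATG12, ATG17 and VPS30. It had 0 reads in 4 of the 8 main activation high libraries, 1 read in 3 of them and 4 reads in 1, and 692 reads in the low libraries, of which 4 held any. In the early screen it had 0 reads in both high libraries and 1 and 58 in the low ones, and under repression 317, 242, 641 and 2 high reads against 227, 132, 144 and 247 low reads. Neither guide had more than 4 reads in any activation high library. Unlike the listed guide, the placed one overlapped between the fractions in main activation, and it did so under repression as well. The placed guide of ATG5 had 1 read in the activation high libraries and 132 reads, all in round 2 replicate 1, in the repression high libraries, against 65, 57, 69 and 80 low reads, so that it was not lost from the high fraction as the listed ATG5 guide was. The placed guide of ATG34 had 1474 of its 1476 activation high reads in round 2 replicate 1, and its 55 low reads lay in 3 libraries.

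Of 33 other genes of the pathway, 12 had a listed guide, with 13 guides in all. In the main activation screens 4 were tested and 3 enriched, against 69.5% of all tested guides. These were AMS1, whose product is the α-mannosidase that Atg34 and Atg19 deliver (log2 fold change 7.93), YKT6, a SNARE of vesicle fusion (7.46), and MON1, part of the activator of the Ypt7 GTPase (5.11), and the value for PEP4, the main vacuolar protease, was -1.12. In the early screen 11 were tested, 0 were enriched and 2 were depleted, against 1.21% and 21.2% of all tested guides. The 2 were TOR1, the kinase that holds autophagy back, with 0 high reads and a fitted value of -8.69, and SNX4, a sorting nexin, with 0 high reads and -10.55. Both were listed from this screen, so these values are a description. Under repression 12 were tested and 0 were called, where 5.37% of all tested guides were enriched and 13.5% depleted. Between activation and repression 1 pathway guide differed at FDR < 0.05, where 3.97% of all tested guides did. It was the guide for ATG42, a vacuolar carboxypeptidase, with a difference of 10.95 ± 3.43 (SE). That guide was named through the main list, had 469 of its 476 activation high reads in round 4 replicate 2, and did not pass with the block, TMM factors, library size alone or the quasi-likelihood test. The guide for the non-coding transcript CUT361 had 946 and 113 reads in the early low libraries and 0 in the high ones, was not tested in main activation, and had a log2 fold change of 0.46 under repression.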

How the data were processed

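The authors demultiplexed the amplicon reads, aligned them with BWA to the guide sequences and deposited raw counts of reads per guide in each library, with replicates kept apart and no normalization. Versions of these tools are not given in the sources used here. From these counts, each screen was fitted on its own with edgeR 4.0.16 in R 4.3.3, as in the study's methods, with filterByExpr, RLE factors, glmFit and glmLRT between the fractions and Benjamini-Hochberg adjustment over all guides tested, and thresholds mirrored for depletion. For the main screens the thresholds are the enrichment criterion of the methods, and for the early screen they are those given there for including early genes in a network analysis. The filter is not named there and was chosen here. Standard errors were taken from the likelihood ratio statistic, whose root is the fold change over its error. The alternative tests were the quasi-likelihood test, DESeq2 1.42.0 and exact two-sided permutation of the libraries. Other alternatives were TMM factors, library size alone, other filters, a prior count of 2, the sort replicate as a block and leaving out a sort. The permutation was run on log2(x + 1), where x is the value with the RLE factors, in the unit of CPM, and not the CPM itself. The scripts were tested on simulated counts.

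The members and the pathway list were chosen with earlier results of these data known. All members with a listed guide are named, placed guides where their counts bear on a listed guide, and pathway genes where called, with PEP4 and CUT361 added. Symbols and coordinates come from the R64 gene table, and the submitters' notes name sacCer3. No genome was used, so guides were placed through the 1999 positions in the study's guide list used here, a choice made after seeing the data. Of 67 listed guides with a position, 56 lay in the window of their own gene and 46 were placed at it.

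Libraries held 50433 to 3359719 reads. Floors of 3 reads stand for counting error alone, as amplicon reads carried no molecular identifiers and are not independent, and p-values measure the spread between these libraries, which may be technical. No libraries were identical. Value columns that were not used numbered 0. A few genes and transcripts are not reported here.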

Additional observations from a re-analysis of the deposited data

Results flagged for a closer look

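On log2(CPM + 1), 1 library lay far from the others of its group for 6 of the 42 groups of member guides and fractions examined, and chance flags about 1 in 20. The values give the gap to the nearest library as a share of the range of the group. In main activation, the highest of the 8 high libraries of ATG33, round 5 replicate 1 with 97274 reads, gave 0.540, and the lowest of the 8 low libraries of ATG39, round 4 replicate 1 with 16 reads, gave 0.530. In main repression, the lowest of the 4 high libraries gave 0.846 for ATG10, with 0 reads in round 2 replicate 2, and 0.888 for VPS30, with 4 reads in the same library. The lowest of the 4 repression low libraries gave 0.865 for ATG16, with 451 reads in round 1 replicate 1, and 0.914 for ATG39, with 205 reads in round 2 replicate 1.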

How the results depend on the processing

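The replicate number did not meet the criterion for pairing high and low libraries, whose deviations from their group means correlated at -0.014 in the early, 0.0522 in the main activation (mean, 5 of 8 libraries best with their own number) and 0.0123 in the main repression screens (2 of 4). With the replicate block, 0 of 6 enriched activation, 0 of 4 depleted early and 0 of 1 enriched repression guides kept their call, and the 2 depleted repression guides kept theirs. The 4 depleted early guides became 0 with the quasi-likelihood test, without a filter, with the CPM filter and with a prior count of 2, became 2 with DESeq2 and rose to 7 with TMM factors and with library size alone. The 6 enriched activation guides became 2 with library size alone, 10 with CPM above 1 and 0 in the exact permutation test. Depleted activation guides rose from 0 to 1 with library size alone (ATG7) and with CPM above 1 (ATG13), and numbered 0 to 1 when a sort was left out (ATG13, without round 4 replicate 2). Enriched placed guides under activation rose from 0 to 1 without a filter (ATG34, 8.02). The enriched repression guide became 0 with the quasi-likelihood test, TMM factors, library size alone, DESeq2 and permutation, 2 without a filter, and 0 to 1 when a sort was left out, and the 2 depleted ones became 0 in the permutation test, which could not reach the threshold.

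Early log2 fold changes reversed for ATG8 to -0.065 with TMM factors and -1.04 with library size alone, and for ATG14 to -0.95 with the block and -0.17 with library size alone. When a sort was left out, early values ranged from -0.059 to 12.23 for ATG5, -0.34 to 4.50 for ATG8, -2.03 to 8.55 for ATG10, -11.92 to 9.43 for ATG13, -12.79 to 7.02 for ATG14, -3.76 to 3.16 for ATG21 and -8.33 to 8.69 for ATG39. Under repression, ATG7 reversed to -0.045 with TMM factors and -0.20 with library size alone, and ATG38 to -0.29 with the block, -0.25 with TMM factors and -0.25 with library size alone, and leaving out a sort gave -0.14 to 0.92 for ATG38 and -0.19 to 5.19 for ATG21. The cause of these changes was not tested. Of the alternatives of single guides, 111 of 150 early, 92 of 107 activation and 166 of 180 repression values kept direction and call.

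Over all guides, the 810 enriched activation guides became 13 with the block, 452 with TMM factors, 22 with library size alone, 281 with DESeq2, 1650 without a filter and 1637 with CPM above 1, and the 720 enriched repression guides became 0, 105, 14, 107, 1125 and 900, and 5 without round 2 replicate 2. The 39 enriched and 681 depleted early guides both became 0 with the block, without a filter and with CPM above 1. Guides that differed between activation and repression numbered 582, and 193 with the block, 190 with TMM factors and 0 with library size alone. Of the 16 guides, 9 did not pass the activation filter, which asks for enough reads in at least as many libraries as a fraction holds. Some of them had many reads in 1 library.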
